A study of Saccharomyces cerevisiae with 35 samples.

Results

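YPS128, a diploid oak isolate of the North American lineage of Saccharomyces cerevisiae, was followed from 30 min to 3 h in 0.7 M NaCl. The comparison set the 3 libraries at 3 h against the 2 libraries at 30 min. These 5 libraries were taken by their labelled strain and time from a series of 35 that also covers the laboratory strain BY4743 and the wild strains BC187 and NCYC3290, each unstressed, at 30 min and at 3 h. By the growth protocol, strains were grown in the rich medium YPD, NaCl was added to the culture after the unstressed sample, and the remaining culture was sampled again at each time. Libraries of YPS128 with the same replicate number were therefore taken as 1 culture, which the labels do not state number by number. The library of replicate 3 at 30 min failed, so replicate 3 at 3 h had no partner at the earlier time. The labels give 0.7 M NaCl for the unstressed libraries too, which the growth protocol describes as collected before NaCl was added. Reads were mapped to the genome of S288c, the laboratory reference, and not to that of YPS128.

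High external NaCl draws water out of yeast cells and lets toxic sodium in. The kinase Hog1 is activated, glycerol is made and kept as the balancing solute, sodium pumps of the ENA family export the ion, and the cell wall and calcineurin pathways are engaged. In parallel, yeast mount a general environmental stress response. The activators Msn2 and Msn4 bind the stress response element (STRE) upstream of defence genes, while genes for ribosomes and their assembly, many of which carry the promoter elements PAC and RRPE or bind Rap1, are turned down as growth slows. The study collected 30 min as the immediate response and 3 h as the acclimated state, and the comparison asks what changed in YPS128 between them.

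Between 3629637 and 4805400 reads were counted on genes in each of the 5 libraries, and 6019 of 6717 genes were tested. Levels are given as CPM, counts relative to the size of the library after scaling by TMM. TMM is a scaling that assumes most genes do not change, and the scaled CPM of a library therefore summed to more at 30 min than at 3 h. The libraries grouped by time, with correlations of log2 CPM across genes of 0.978 between the libraries at 30 min, 0.985 to 0.992 among those at 3 h, and 0.875 to 0.905 between times. The 10 most counted genes took 22.4% and 19.7% of the counts at 30 min and 8.30% to 11.7% at 3 h. A search by the strain labels found 2 genes with at least 5 counts in each of the 27 libraries of the other strains and 0 counts in all 8 YPS128 libraries. They were YIL029C and a mitochondrial intron gene. They set the 8 libraries apart from the others and do not show which strain these are.

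Glycerol, trehalose, glycogen, cell wall and autophagy genes mostly rose between 30 min and 3 h in YPS128. Chaperone and oxidative stress genes went both ways. Genes for ribosomes, translation, histones and sterols and the main forms of the fermentation genes fell on the TMM scale. Sterol genes turned with another scaling. Of the 6019 genes, 3571 (59.3%) passed the threshold of 0.05 after Benjamini-Hochberg adjustment over all genes in the quasi-likelihood test of edgeR, 1818 of them higher at 3 h (30.2%) and 1753 lower (29.1%). At least 2-fold changes numbered 1131 higher (18.8%) and 852 lower (14.2%). The 3 libraries at 3 h lay wholly above those at 30 min for 2386 genes (39.6%) and wholly below for 2032 (33.8%). The same sign was seen in both paired cultures for 3549 of the 3571 changed genes. The pairs are made of libraries that also gave the calls, so this count is not independent support for them.

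The split between higher and lower genes depended on the scaling. With library totals in place of TMM, 3857 of 4318 changed genes were higher (89.3%) and 461 lower, and the median log2 fold change of all genes moved up by 0.905, from 0.06 to 0.97. All 1818 genes that were higher under TMM stayed higher, 461 stayed lower, and 158 that were lower under TMM became higher. Directions below are therefore relative to the TMM scale, and each group of genes whose direction turned with library totals is named as such. For lists, calls with library totals compare with 3857 higher and 461 lower of all 6019 genes. The read counts hold no measure of RNA per cell, and fewer cells of a kind cannot be told apart from less RNA in each.

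**Figure D1:**
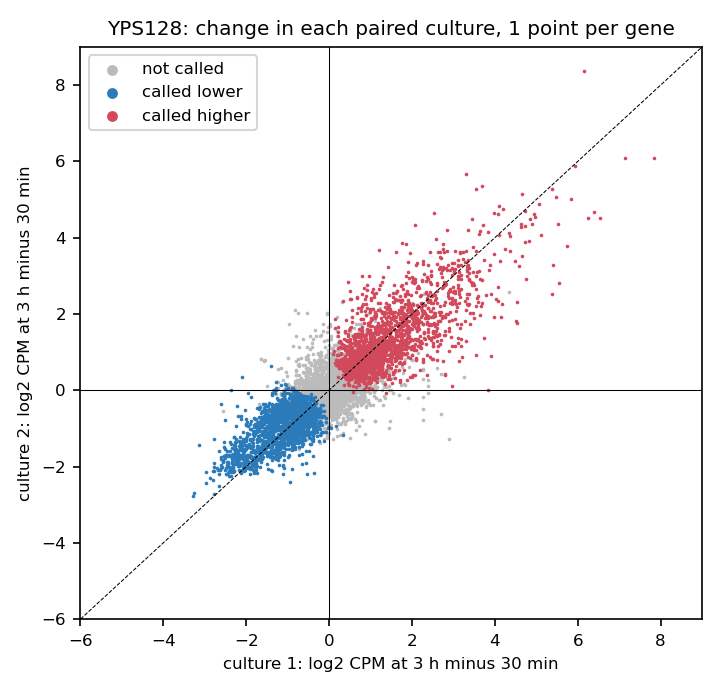
Change of each gene in the cultures sampled at both times, as log2 CPM at 3 h minus log2 CPM at 30 min, with culture 1 on the x axis and culture 2 on the y axis and the diagonal marking equal change. Each point is a gene, and 3549 of the 3571 called genes lie in the quadrants where both cultures have the same sign. The calls used these same libraries.

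The largest rises began from low levels at 30 min. PIR3 (YKL163W, chromosome XI of S288c R64, 144401 to 145378), a cell wall protein linked to glucan, had 3.92 and 0.572 CPM in the libraries at 30 min and 310, 328 and 185 CPM at 3 h. Its log2 fold change was 7.27 (standard error 0.45, adjusted p = 1.47e-13 from edgeR), and it was 6.16 in culture 1 and 8.38 in culture 2. The groups did not overlap, and the 2 counts behind the lower value at 30 min make the size of the rise less certain than its direction. DDR2, which responds to many stresses, had 0 and 0.858 CPM at 30 min and 58.3, 85.7 and 37.1 CPM at 3 h. HSP12 (YFL014W, chromosome VI, 107256 to 107585), which encodes a small membrane-associated hydrophilin, went from 10.02 and 37.8 CPM to 2385, 2580 and 2522 CPM, a log2 fold change of 6.70 (standard error 0.47, adjusted p = 2.11e-12). The unstressed libraries had 0 to 1.24 CPM of HSP12, so it was already above them at 30 min, and the 3 libraries at 3 h differed little.

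The other genes among the 10 largest rises came from several processes. ARG3, the ornithine carbamoyltransferase of arginine synthesis, rose by 6.12 on the log2 scale, from 3.49 and 2.86 CPM to 238, 192 and 193 CPM. PRM5, a target of cell integrity signalling, rose by 5.70, and POT1, the peroxisomal thiolase of fatty acid breakdown, by 5.67. SIP4, an activator of gluconeogenic genes, had 2.61 and 3.72 CPM at 30 min and 134, 139 and 137 CPM at 3 h. SRL3, NQM1, a transaldolase, and CSS3 rose by 5.62, 5.43 and 5.13 on the log2 scale. In each of these 10 genes every library at 3 h was above both at 30 min.

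The largest falls began from high levels. AQY2 (YLL052C, chromosome XII, 35912 to 36361), a water channel gene, had 305 and 194 CPM at 30 min and 30.8, 27.9 and 17.2 CPM at 3 h, a log2 fold change of -3.2 (standard error 0.23, adjusted p = 2.53e-12). Its neighbour YLL053C, which overlaps AQY2 by 50 bases on the same strand and can share its reads, fell by 3.03 on the log2 scale. YLL053C had 335 and 201 CPM at 30 min and 34.5, 30.6 and 23.5 CPM at 3 h, close to AQY2 in each library. Whether AQY2 and YLL053C are separate transcripts in YPS128 was not tested. HXT3 (YDR345C, chromosome IV, 1162957 to 1164660), a low-affinity glucose transporter, had 1922 and 3469 CPM at 30 min and 306, 612 and 207 CPM at 3 h. The levels of HXT3 at 30 min were within or above those of the unstressed libraries (902 to 2808 CPM), and those at 3 h were below them. HPT1, a purine salvage enzyme, fell by 2.70 on the log2 scale, from 418 and 384 CPM to 60.6, 57.7 and 59.8 CPM. INA1, RPL30, RPS28B and YLR264C-A fell by 2.73, 2.64, 2.57 and 2.55.

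The plasma membrane proton pump PMA1 (YGL008C, chromosome VII, 479910 to 482666), which sets the membrane potential that drives transport, was among the 10 largest falls. It had 29621 and 18779 CPM at 30 min and 4327, 4966 and 2584 CPM at 3 h, a log2 fold change of -2.54 (standard error 0.30, adjusted p = 2.15e-08). PMP2, a small proteolipid that associates with the pump, fell by 2.64 on the log2 scale. All of these falls stayed below 0 and past the threshold with library totals.

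**Figure D2:**
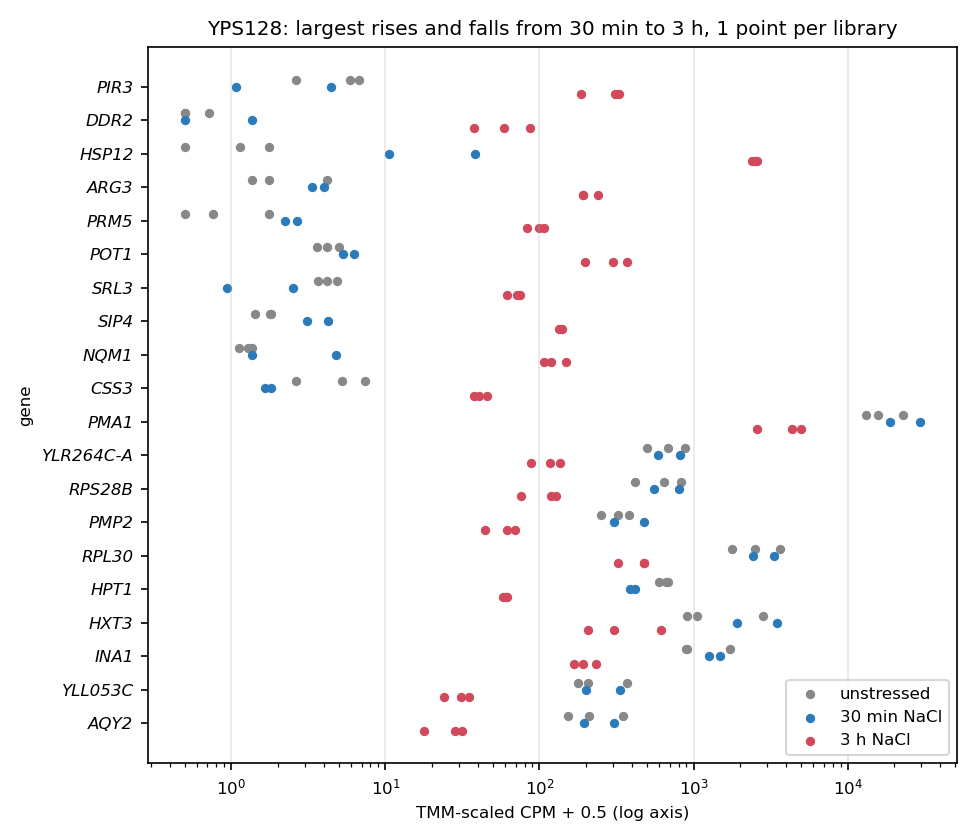
Level of the 10 genes with the largest rises and the 10 with the largest falls in each YPS128 library, as CPM plus 0.5 on a log axis, for the unstressed, 30 min and 3 h libraries. In PIR3 the libraries at 3 h lie between 185 and 328 CPM and those at 30 min at 0.572 and 3.92 CPM, and in AQY2 the order is the opposite.

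The stretches upstream of 6 of the named genes are shown because they carry the elements named above in genes that rose or fell. They are the genome sequence of S288c R64 from 350 to 51 bases before the annotated start of each gene, 300 bases read in the direction of the gene, and the bases of YPS128 can differ. Capitals mark STRE (AGGGG on either strand) in PIR3, HSP12 and CTT1, which rose, and PAC (GATGAG) and RRPE (AAANTTTT) on either strand in HXT3, NSR1 and RPA135, which fell. PIR3 was the largest riser with an STRE. HXT3 was the largest faller with PAC or RRPE outside another gene, since the stretch before YLL053C lies within AQY2.
PIR3, chromosome XI, 144051 to 144350, plus strand: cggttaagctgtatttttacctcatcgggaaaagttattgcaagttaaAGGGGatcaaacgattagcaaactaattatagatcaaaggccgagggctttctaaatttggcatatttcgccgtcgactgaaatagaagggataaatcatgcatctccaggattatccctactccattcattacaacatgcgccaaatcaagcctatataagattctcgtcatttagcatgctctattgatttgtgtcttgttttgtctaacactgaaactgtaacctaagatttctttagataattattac
HSP12, chromosome VI, 106906 to 107205, plus strand: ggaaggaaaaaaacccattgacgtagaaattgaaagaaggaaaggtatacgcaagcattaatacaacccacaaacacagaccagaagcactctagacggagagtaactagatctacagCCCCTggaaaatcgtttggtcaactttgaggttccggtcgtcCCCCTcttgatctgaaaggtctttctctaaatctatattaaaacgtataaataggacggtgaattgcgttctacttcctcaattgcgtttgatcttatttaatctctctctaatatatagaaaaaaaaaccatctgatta
CTT1, chromosome VII, 654284 to 654583, plus strand: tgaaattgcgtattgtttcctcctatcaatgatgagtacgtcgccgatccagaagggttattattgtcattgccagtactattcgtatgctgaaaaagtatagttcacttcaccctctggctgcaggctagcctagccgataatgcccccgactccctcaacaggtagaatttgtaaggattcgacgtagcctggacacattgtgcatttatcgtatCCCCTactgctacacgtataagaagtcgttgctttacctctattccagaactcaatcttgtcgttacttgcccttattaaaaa
HXT3, chromosome IV, 1164711 to 1165010, minus strand: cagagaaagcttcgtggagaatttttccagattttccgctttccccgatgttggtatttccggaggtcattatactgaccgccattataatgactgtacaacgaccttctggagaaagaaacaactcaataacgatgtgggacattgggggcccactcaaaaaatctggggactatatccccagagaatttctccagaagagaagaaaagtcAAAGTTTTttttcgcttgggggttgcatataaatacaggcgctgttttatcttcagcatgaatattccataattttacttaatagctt
NSR1, chromosome VII, 807707 to 808006, minus strand: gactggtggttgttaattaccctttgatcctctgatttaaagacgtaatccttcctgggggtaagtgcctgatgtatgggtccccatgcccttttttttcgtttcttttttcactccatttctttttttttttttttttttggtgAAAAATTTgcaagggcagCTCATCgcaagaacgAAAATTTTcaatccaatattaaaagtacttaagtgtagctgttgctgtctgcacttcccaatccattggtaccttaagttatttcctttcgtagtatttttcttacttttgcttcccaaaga
RPA135, chromosome XVI, 581247 to 581546, minus strand: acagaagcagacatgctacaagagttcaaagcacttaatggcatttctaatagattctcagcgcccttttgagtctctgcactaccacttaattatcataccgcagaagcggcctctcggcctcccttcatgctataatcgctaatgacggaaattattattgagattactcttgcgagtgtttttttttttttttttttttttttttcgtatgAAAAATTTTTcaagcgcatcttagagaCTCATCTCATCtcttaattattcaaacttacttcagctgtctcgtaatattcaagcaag

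HSP12 had 2 STRE, at 232 to 228 and 190 to 186 bases before its start, and PIR3 and CTT1 had 1 each. PIR3 and CTT1 also held a PAC, not in capitals, at 330 to 325 and 320 to 315 bases before the start. RPA135 had 2 PAC matches that share a base, 109 to 104 and 104 to 99 bases before the start, next to a run of 3 overlapping RRPE matches. NSR1 had 1 PAC between 2 RRPE. Over the 5771 tested genes with such a stretch, 23.2% had an STRE, 19.5% a PAC and 24.6% an RRPE. Among the 1760 genes called higher the shares were 33.2%, 14.6% and 17.6%, and among the 1725 called lower they were 17.1%, 26.5% and 35.9%. These shares describe letters in a window, and no binding was measured.

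Genes for glycerol synthesis, uptake and breakdown were among those that rose. Of 16 genes for glycerol synthesis, uptake and breakdown, 10 were higher at 3 h and 2 lower (62.5% and 12.5%, against 30.2% and 29.1% of all genes), with a median log2 fold change of 1.35 against 0.06. STL1 (YDR536W, chromosome IV, 1508005 to 1509714), which imports glycerol with protons, had 26.6 and 51.5 CPM at 30 min and 932, 869 and 765 CPM at 3 h, a log2 fold change of 4.47 (standard error 0.39, adjusted p = 1.13e-10). GPD1, the glycerol-3-phosphate dehydrogenase induced by osmotic stress, had 122 to 222 CPM unstressed, 630 and 813 CPM at 30 min and 2844, 2496 and 2578 CPM at 3 h. GPP2, the matching phosphatase, had 106 and 290 CPM at 30 min and 1327, 1141 and 1799 CPM at 3 h. GCY1, a glycerol dehydrogenase of glycerol breakdown, rose by 3.56 on the log2 scale, from 5.23 and 12.01 CPM to 88.4, 148 and 73.3 CPM. In GPD1 and GPP2 the level had already risen above the unstressed libraries at 30 min, and every library at 3 h was higher again. The related genes GPP1 and GPD2 fell by 1.69 and 0.76 on the log2 scale. With library totals GPD2 had a log2 fold change of 0.17, and without replicate 1 at 30 min it had -0.59 and no longer passed the threshold.

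Of 23 genes of the HOG pathway, 9 were higher and 4 lower (39.1% and 17.4%, against 30.2% and 29.1% of all genes), with a median of 0.36. HOG1 itself had 206 and 155 CPM at 30 min and 253, 224 and 224 CPM at 3 h (log2 fold change 0.36, adjusted p = 0.093). The phosphatase PTP2, which turns Hog1 off, rose by 2.86, and the sensor SHO1 fell by 0.96 on the log2 scale, to -0.04 with library totals. Of 27 transcription factors of the osmotic and general stress response, 19 were higher and 2 lower (70.4% and 7.41%, median 0.92). MSN2 had 89.8 and 98.7 CPM at 30 min and 213, 222 and 248 CPM at 3 h, and MSN4 rose by 1.76 on the log2 scale. HOT1, the activator of glycerol genes, rose by 0.95. USV1 rose by 3.33 and ADR1, which activates genes for ethanol and fatty acid use, by 3.2.

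Reads on ENA sodium pump genes rose while those on the proton pump gene fell. Of 23 genes for sodium, potassium and proton transport, 11 were higher and 2 lower (47.8% and 8.70%, median 0.42), the latter PMA1 and the kinase gene SAT4. Of all genes 30.2% were higher and 29.1% lower. ENA1 (YDR040C, chromosome IV, 535192 to 538467) had 3.22 to 6.33 CPM unstressed, 19.2 and 38.0 CPM at 30 min and 340, 402 and 319 CPM at 3 h, a log2 fold change of 3.72 (standard error 0.26, adjusted p = 2.17e-12). ENA5 had 10.9 and 16.6 CPM at 30 min and 325, 379 and 254 CPM at 3 h. Only 14.8% of the 100-base windows of ENA1 and 12.2% of those of ENA5 occur once in the S288c genome. Reads can therefore not be assigned to either gene with certainty. From DNA reads, the study put YPS128 at a single ENA copy per haploid genome. The values of ENA1 and ENA5 may thus come from the same gene in YPS128. SAT4 fell by 0.35 on the log2 scale and had 0.58 with library totals. The antiporter gene NHA1 had a log2 fold change of -0.09 (adjusted p = 0.66) and the potassium transporter gene TRK1 one of -0.13 (adjusted p = 0.57). Of 17 calcineurin and calcium genes, 8 were higher and 3 lower (47.1% and 17.6%, median 0.44). CMK2, a calmodulin-dependent kinase gene, had 249 to 359 CPM unstressed, 15.7 and 21.2 CPM at 30 min and 70.2, 75.2 and 76.6 CPM at 3 h. It rose by 2.03 on the log2 scale and remained below every unstressed library.

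Most cell wall genes rose, while GAS1 and CCW12 were among those that fell. Of 43 genes of the cell wall integrity pathway and its targets, 27 were higher and 7 lower, with a median of 0.89. These were 62.8% and 16.3%, against 30.2% and 29.1% of all genes. The pathway's kinase gene SLT2 had 54.9 and 76.1 CPM at 30 min and 493, 413 and 479 CPM at 3 h. Its transcription factor gene RLM1 rose by 2.15 and the chitin synthase gene CHS1 by 2.14 on the log2 scale. The wall mannoprotein gene CWP1 had 215 and 230 CPM at 30 min and 2183, 2450 and 1357 CPM at 3 h. GAS1, a glucan-elongating enzyme, fell by 1.53, and CCW12, among the most abundant wall proteins, fell by 1.37 on the log2 scale, to -0.40 with library totals, where it did not pass the threshold.

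Genes for both storage carbohydrates rose. Of 10 trehalose genes, 9 were higher and 1 lower (90.0% and 10%, median 2.001), against 30.2% and 29.1% of all genes. TSL1, a subunit of trehalose synthase, had 47.5 and 76.4 CPM at 30 min and 980, 1256 and 867 CPM at 3 h. TPS1 and TPS2, which make trehalose, rose by 1.72 and 2.30 on the log2 scale, and NTH1 and ATH1, which break it down, rose by 2.28 and 3.42. Synthesis and breakdown genes thus rose together. Of 14 glycogen genes, 11 were higher and 1 lower (78.6%, median 1.62). GPH1, the glycogen phosphorylase, had 9.59 and 9.44 CPM at 30 min and 156, 245 and 136 CPM at 3 h. GIP2, a phosphatase regulator, rose by 4.39, and the synthase genes GSY1 and GSY2 rose by 3.48 and 3.57 on the log2 scale. In the windows described above, 9 of the 10 trehalose and 9 of the 14 glycogen genes had an STRE.

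Of 35 genes for heat shock proteins, chaperones and hydrophilins, 13 were higher and 12 lower (37.1% and 34.3%, near the 30.2% and 29.1% of all genes, with a median of 0.12). Disaggregase HSP104 had 259 and 344 CPM at 30 min and 1049, 855 and 1536 CPM at 3 h. SSA4, a stress-induced Hsp70, had 13.5 to 16.6 CPM unstressed, 418 and 728 CPM at 30 min and 2136, 1382 and 2774 CPM at 3 h. SSB1, a ribosome-associated Hsp70 with 68.2% unique windows, fell by 2.34, and SSE1 and the mitochondrial chaperonin HSP60 fell by 1.37 and 1.38 on the log2 scale. With library totals 19 genes of this list were higher and 4 lower. Of 33 oxidative stress genes, 15 were higher and 10 lower (45.5% and 30.3%, median 0.39). With library totals 25 of them were higher and 1 lower. CTT1 (YGR088W), the cytosolic catalase, had 16.1 and 32.9 CPM at 30 min and 508, 816 and 535 CPM at 3 h, and GRE2, a methylglyoxal reductase, rose from 58.0 and 62.9 CPM to 1732, 1291 and 2032 CPM. TRX1, a thioredoxin, fell by 1.68 on the log2 scale.

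Central carbon genes changed isoform. Of 34 glycolysis and fermentation genes, 12 were higher and 18 lower (35.3% and 52.9%, against 30.2% and 29.1% of all genes, median -0.77). With library totals 16 were higher and 15 lower, with a median of 0.18. HXK1 had 4.79 and 26.03 CPM at 30 min and 397, 605 and 376 CPM at 3 h, while the main hexokinase of cells growing on glucose, HXK2, had 2635 and 2744 CPM at 30 min and 631, 679 and 555 CPM at 3 h. PDC1, the main pyruvate decarboxylase, fell from 66559 and 44006 CPM to 10896, 11265 and 7752 CPM, and ADH1, the main alcohol dehydrogenase of fermentation, fell by 2.19 on the log2 scale. Of 17 genes of gluconeogenesis and the glyoxylate cycle, 13 were higher and 1 lower (median 1.62). The lower gene was FBP1, which had 4.75 to 7.46 CPM unstressed, 55.3 and 46.6 CPM at 30 min and 34.3, 30.9 and 27.4 CPM at 3 h. With library totals FBP1 had a log2 fold change of 0.23. Of 20 hexose transport and sensing genes, 12 were higher and 3 lower (median 0.86). HXT5, a transporter made when growth slows, had 5.23 and 15.4 CPM at 30 min and 261, 325 and 198 CPM at 3 h, while HXT2 fell by 2.21 on the log2 scale.

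The changes are set side by side in 21 pairs of related genes, each with a form known from stress, respiration or low use and a form known from growth. The pairs were chosen after the values were seen and are given as a description, with no test, so their shared direction supports nothing. The difference between members of a pair does not depend on how the libraries are scaled. On the TMM scale the first form was called higher and the other lower in 18 pairs. These calls do depend on the scaling, and GPD2 turned with library totals. The gain of the first form on the other ran from 1.99 to 7.41 on the log2 scale, with a median of 3.73. It was 6.97 for HXK1 over HXK2, 5.03 for PYK2 over the main pyruvate kinase CDC19, 5.14 for PGM2 over PGM1, and 4.93 for TDH1 over TDH3. In mitochondria it was 3.83 for COX5B over COX5A, subunits of cytochrome c oxidase, and 3.73 for CYC7 over CYC1, forms of cytochrome c. It was 3.10 for the ubiquitin-conjugating enzyme UBC5 over UBC4 and 1.99 for the chaperone HSP82 over HSC82.

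Nuclear genes of respiration were more often lower than higher on the TMM scale, and the reverse with library totals. Of all 6019 genes, 30.2% were higher and 29.1% lower on the TMM scale, with a median log2 fold change of 0.06. With library totals 3857 of all genes were higher and 461 lower, with a median of 0.97. The list medians in this paragraph were below the median of all genes on both scales. Of 44 nuclear genes of oxidative phosphorylation, 5 were higher and 26 lower (median -0.57), but 21 were higher and 5 lower with library totals (median 0.37). ATP16, a subunit of ATP synthase, had 265 and 192 CPM at 30 min and 74.4, 78.1 and 72.0 CPM at 3 h. Of 22 genes of the mitochondrial TCA cycle, 2 were higher and 8 lower (9.09% and 36.4%, median -0.35, and 0.57 with library totals). Of 71 genes listed as mitochondrial ribosomal proteins, 1 was higher and 39 lower (median -0.59, and 0.32 with library totals). The higher gene was MRP8, whose annotated product is not named as a mitochondrial ribosomal protein. The pyruvate dehydrogenase genes PDA1 and PDB1 fell by 1.33 and 1.54 on the log2 scale. Of 8 genes encoded in mitochondria, 6 were lower and 0 higher (median -1.02, and -0.09 with library totals), and the other 2 of the 8 did not pass the threshold. COX3 among them had 684 and 633 CPM at 30 min and 248, 267 and 197 CPM at 3 h.

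The genes that make ribosomes fell. Of 138 cytosolic ribosomal protein genes, 136 were lower and 0 higher (98.6% against 29.1% of all genes), with a median of -1.96, and 2 did not pass the threshold. Their summed share of all counts was 22.7% and 22.6% at 30 min and 10.7%, 10.6% and 10.3% at 3 h, against 24.1% to 27.2% in the unstressed libraries. The share at 30 min was thus just below the unstressed range, and the larger drop lay between 30 min and 3 h. With library totals 132 were lower and 1 higher, with a median of -1.04. RPL30 had 3334 and 2434 CPM at 30 min and 474, 480 and 325 CPM at 3 h. In 52.2% of their windows the Rap1 core ACCCA was found, against 27.2% of all genes tested.

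Of 105 ribosome biogenesis factors, 92 were lower and 0 higher (87.6% lower, against 29.1% of all genes), with a median of -1.07. With library totals only 16 were lower and 3 higher, with a median of -0.17, so most of these calls rested on the TMM scale. NSR1, a nucleolar protein of rRNA processing, had 521 and 391 CPM at 30 min and 125, 100 and 108 CPM at 3 h, and NOP1, the methylase of box C/D particles, fell by 1.98 on the log2 scale. PAC was found in 90.5% and RRPE in 95.2% of their windows. Of 26 subunits and factors of RNA polymerases I and III, 16 were lower and 2 higher (median -0.88, and 0.02 with 3 lower and 5 higher with library totals). RPA135, the second largest subunit of RNA polymerase I, had 1699 and 1556 CPM at 30 min and 563, 597 and 514 CPM at 3 h, while the initiation factor genes RRN3 and RRN6 rose by 0.75 and 0.70 on the log2 scale. Of 35 translation initiation and elongation factors, 32 were lower and 0 higher (median -1.13, and -0.21 with 15 lower and 1 higher with library totals). Elongation factor YEF3 had 34540 and 27525 CPM at 30 min and 6799, 7526 and 5682 CPM at 3 h.

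Genes of cell division and of membranes fell with them. All 10 histone genes tested were lower (median -1.10), and 4 of the 10 were with library totals (median -0.18). Among all genes 29.1% were lower and 30.2% higher on the TMM scale. HHT1, a histone H3 gene, had 429 and 366 CPM at 30 min and 110, 88.1 and 135 CPM at 3 h. Of 28 cyclins and cell cycle genes, 13 were lower and 3 higher (median -0.42, and 0.50 with library totals). The mitotic cyclin gene CLB2 fell by 1.37 and DSE2, a daughter-cell separation gene, by 1.70 on the log2 scale, while FAR1, an inhibitor of cyclin-dependent kinase, rose by 2.42. Of 28 ergosterol genes, 22 were lower and 2 higher (median -0.88, and 0.08 with 10 lower and 7 higher with library totals). ERG25, a sterol methyl oxidase, had 2288 and 1553 CPM at 30 min and 475, 572 and 376 CPM at 3 h.

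Of 30 autophagy and nitrogen catabolite genes, 23 were higher and 4 lower (76.7% and 13.3%, median 1.64). The autophagy kinase gene ATG1 had 6.97 and 11.2 CPM at 30 min and 153, 146 and 140 CPM at 3 h, and ATG8, the ubiquitin-like protein of the autophagosome, rose by 4.04 on the log2 scale. PUT1, the proline oxidase, rose by 4.61, and the ammonium permease gene MEP3 fell by 1.47. Of 62 amino acid synthesis genes, 18 were higher and 31 lower (median -0.41, and 0.53 with 34 higher and 8 lower with library totals). Besides ARG3, ARG1 of arginine synthesis had 36.6 and 26.03 CPM at 30 min and 629, 647 and 457 CPM at 3 h, while the ammonium-assimilating enzymes GDH1 and GLN1 fell by 2.01 and 1.83 on the log2 scale. Of 21 genes of the phosphate regulon, 7 were higher and 8 lower (33.3% and 38.1%, median 0.40). These shares were near those of all genes (30.2% and 29.1%). The higher genes include CTF19, which was matched by name or alias and not checked for a role in phosphate use. The transporter gene PHO84 fell by 2.36 while the sodium-coupled transporter gene PHO89 rose by 2.79 on the log2 scale.

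Of 30 sulfate and methionine genes, 10 were higher and 7 lower (median 0.26), and of 26 iron genes, 10 were higher and 7 lower (median 0.07). These shares, 33.3% and 23.3% for the former and 38.5% and 26.9% for the latter, were near those of all genes (30.2% and 29.1%). The sulfate transporter gene SUL1 rose by 3.21 and the methionine adenosyltransferase gene SAM1 fell by 2.04 on the log2 scale. HMX1, a heme oxygenase, rose from 37.0 and 26.9 CPM to 147, 120 and 146 CPM. Of 36 proteasome and ubiquitin genes, 7 were higher and 2 lower (19.4% and 5.56%, median 0.21), both below the shares of all genes. The polyubiquitin gene UBI4 had 93.3 and 133 CPM at 30 min and 794, 609 and 855 CPM at 3 h, so its rise was large beside a list in which 27 genes did not pass the threshold.

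**Figure D3:**
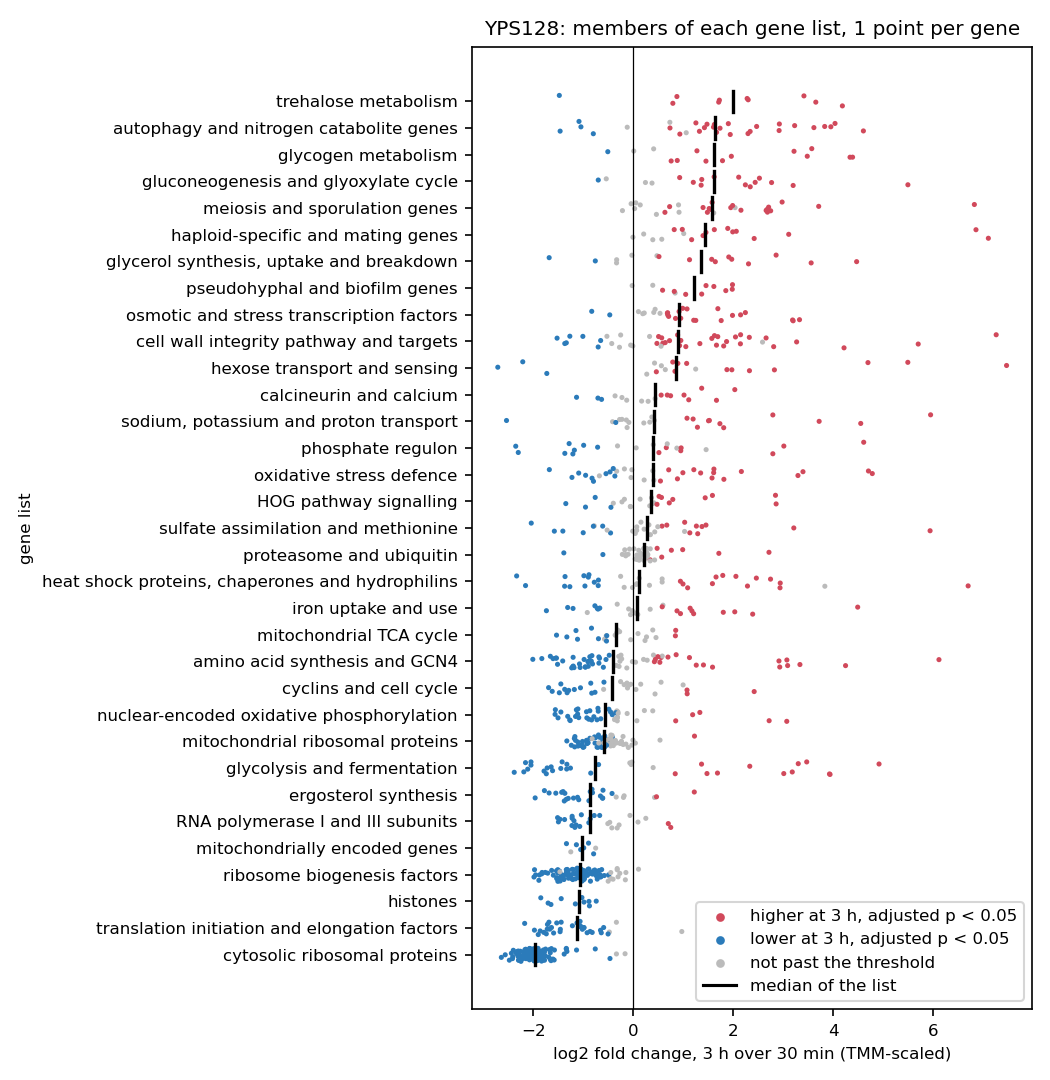
Log2 fold change from 30 min to 3 h of every tested member of the gene lists in YPS128 on the TMM scale, 1 point per gene, with the median of each list as a bar and colour for the call at an adjusted p under 0.05. Trehalose genes have the highest median, 2.001, and cytosolic ribosomal proteins the lowest, -1.96, and the medians of 8 of the 33 lists turn from below to above 0 with library totals.

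The direction of change went with how strongly a gene was expressed before stress. When the genes were divided into 5 bins of equal size by their level in the unstressed libraries, which the comparison does not use, 602 of 1204 genes of the lowest bin were higher and 38 lower (50% and 3.16%). Unstressed levels in the lowest bin ran from 0 to 8.84 CPM, so its genes had little room to fall unless they had risen by the earlier time. A gene near 0 there was tested only if enough other libraries, of any strain and time, counted it. The parts of this floor and of the filter in the split of the lowest bin were not tested. In the highest bin 105 of 1204 were higher and 869 lower (8.72% and 72.2%). The medians ran from 1.15 through 0.35, 0.07 and -0.18 to -0.96. Of the 100 genes with the highest unstressed level, 99 were called lower and 0 higher. With library totals the medians ran from 2.03 to -0.03, so the order remained while the zero point moved. The lists above differ in level too, with a median of 1022.5 CPM for ribosomal proteins and 16.9 CPM for gluconeogenesis genes over the 5 libraries, and the part of level in their changes was not tested.

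**Figure D4:**
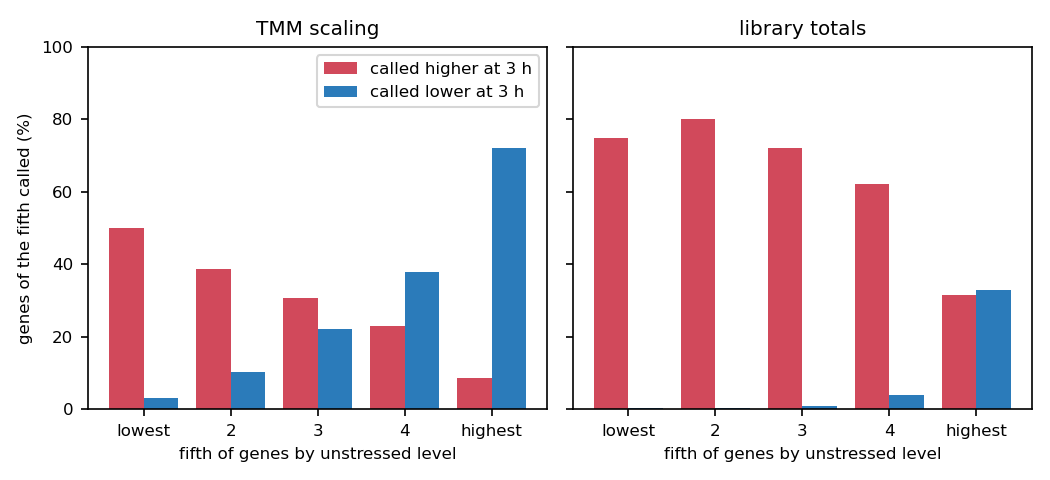
Share of genes called higher and lower at 3 h in 5 bins of genes by unstressed level, in percent, with TMM scaling on the left and library totals on the right. With TMM 50% of the lowest bin were higher and 72.2% of the highest bin lower, and with library totals 379 genes of the highest bin were higher and 397 lower.

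Markers of other cell types rose from low levels. Of all genes 30.2% were higher and 29.1% lower, and of the lowest bin of unstressed level 50% were higher and 3.16% lower. Of 18 haploid-specific and mating genes tested, 13 were higher and 0 lower (72.2%), with a median of 1.43. Their summed level was 59 to 75 CPM unstressed, 136 and 140 CPM at 30 min and 411, 462 and 365 CPM at 3 h. FAR1 made up much of that sum, with 228, 268 and 166 CPM at 3 h. The pheromone receptor genes STE2 and STE3, which mark opposite mating types, had 8 and 9 and 2 and 4 counts at 30 min, and 45 to 60 and 18 to 46 counts at 3 h. FUS3, the mating kinase, and RME1, a haploid repressor of meiosis, had 0 counts in both libraries at 30 min and were at least 6.46-fold and 5.65-fold higher at 3 h, against a floor of 3 counts over the 2 libraries together. MF(ALPHA)1 and AGA2 of the list had too few counts to be tested. Of 28 meiosis and sporulation genes, 18 were higher and 0 lower (64.3%, median 1.57), with a summed level of 227 and 248 CPM at 30 min and 571, 552 and 582 CPM at 3 h. IME1, the master regulator of meiosis, had 0 counts in both libraries at 30 min and 17 to 19 at 3 h (at least 5.45-fold higher), and its target kinase gene IME2 had 6.54 and 16.6 CPM at 30 min and 76.4, 69.4 and 88.7 CPM at 3 h. NDT80, the activator of the middle sporulation genes, had 52.3 and 41.8 CPM at 30 min and 49.2, 45.0 and 48.4 CPM at 3 h. Of 12 pseudohyphal genes, 9 were higher and 0 lower (median 1.21). These genes lie among the low levels that rose in general, and the part of other cell types in the changes was not tested.

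The change in YPS128 was then set against the same change in the other strains, in the same model. It differed from the mean change of BY4743, BC187 and NCYC3290 at 2897 of 6019 genes (48.1%, adjusted p-value under 0.05 from edgeR), with 1509 genes more positive (25.1%) and 1388 more negative (23.1%) in YPS128. Among them, 703 genes had a rise in YPS128 and a mean fall in the others, 700 a fall in YPS128 and a mean rise in the others, 709 rose further in YPS128, 605 fell further, and 180 changed less. The median absolute log2 fold change over all genes was 0.71 in YPS128, 0.48 in BY4743, 0.52 in BC187 and 0.54 in NCYC3290. The change from 30 min to 3 h passed the threshold at 50.2% of genes in BY4743, 52.9% in BC187 and 54.8% in NCYC3290. The call was opposite to that in YPS128 at 1349 genes in BY4743, 296 in BC187 and 52 in NCYC3290. With library totals 3098 genes were more positive and 557 more negative in YPS128.

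STL1 had the largest positive difference from the other strains under the rule for named genes, 4.70 on the log2 scale (adjusted p = 7.73e-10 from edgeR). It rose by 4.47 in YPS128, 0.54 in BC187 and 1.52 in NCYC3290, and had -2.75 in BY4743. GID10, a substrate receptor of a ubiquitin ligase, and HSP12 had differences of 4.49 and 4.46, SRL3 one of 4.41, and YHB1, a nitric oxide dioxygenase, one of 4.28. In all of these genes BY4743 had the lowest value of the 4 strains and YPS128 the highest. The largest negative differences were those of AQY2 (-3.25), the phosphate transporter gene PHO84 (-3.08), SFG1, a factor of filamentous growth (-2.81), the cytosine and purine permease gene FCY2 (-2.76) and the peptide transporter gene PTR2 (-2.67). PHO84 had -2.36 in YPS128, -1.18 in NCYC3290, 0.59 in BC187 and 2.77 in BY4743. For ENA1 the difference was 2.24 (adjusted p = 1.37e-07), with 2.05 in BC187, 2.94 in NCYC3290 and -0.55 in BY4743.

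List medians lay further apart between strains for some lists than for others. Of the 138 ribosomal protein genes, 136 fell further than the mean of the other strains, with medians of -1.96 in YPS128, -1.20 in NCYC3290, -0.62 in BC187 and 0.49 in BY4743. Of the 35 chaperone genes, 23 were more positive in YPS128 and 5 more negative, with medians of 0.12 against -0.95, -0.95 and -1.32 in NCYC3290, BC187 and BY4743. HSP104 had a difference of 3.22 and SSA4 one of 3.89. Of the 44 oxidative phosphorylation genes, 35 were more negative in YPS128, where the median was -0.57 against 0.10, 0.70 and 0.97 in the same order. Ribosome biogenesis factors differed in another way, with a median of -1.07 in YPS128 and -1.41 and -1.44 in NCYC3290 and BC187, against 0.05 in BY4743. For sodium, potassium and proton transport the median was 0.42 in YPS128, 0.53 in NCYC3290 and 0.46 in BC187, and for hexose transport and sensing it was 0.86 in YPS128 and 0.90 in NCYC3290. For iron genes the median was 0.07 in YPS128, below those of the other strains (0.22 to 0.44). These medians are on the TMM scale of all 35 libraries, and none of them was tested as a list.

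**Figure D5:**
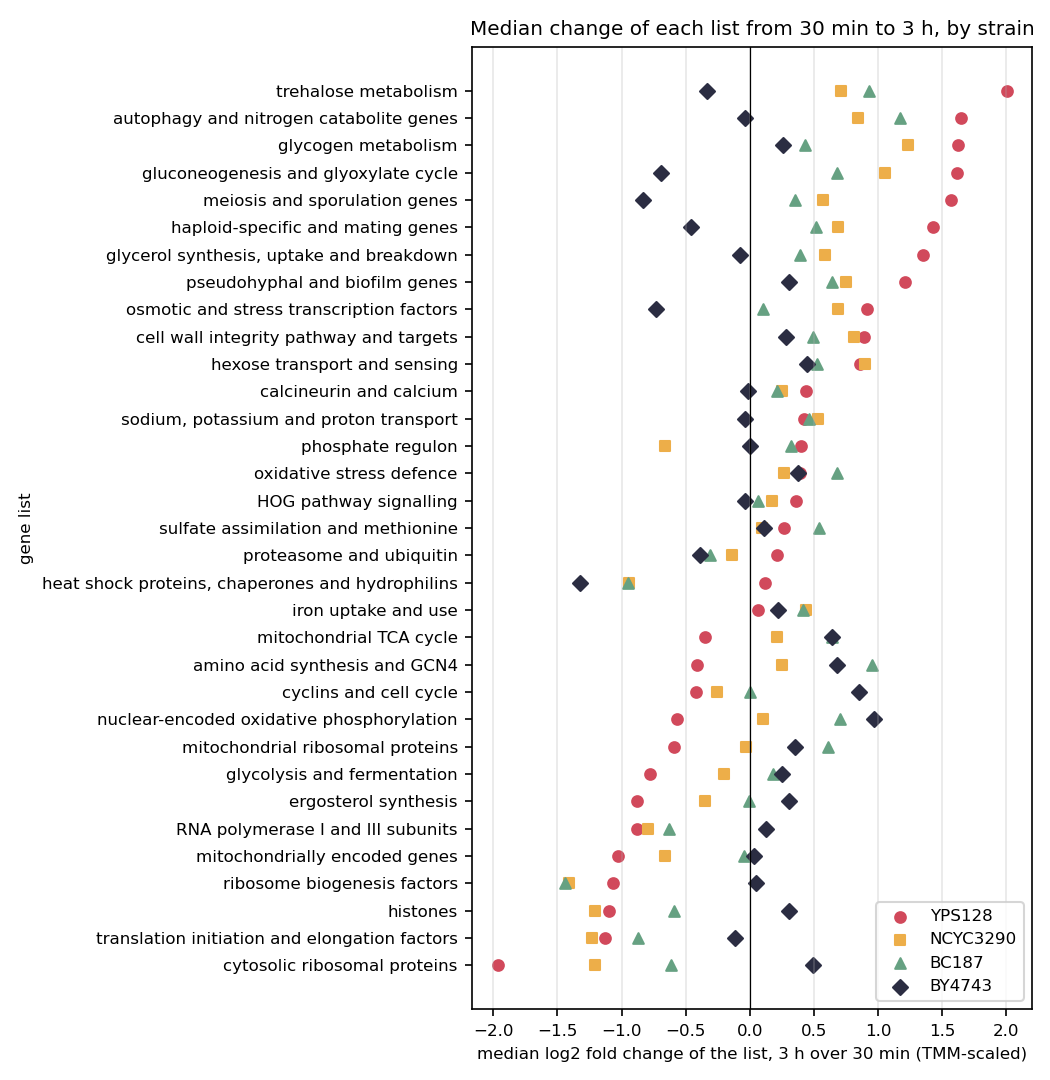
Median log2 fold change from 30 min to 3 h of each gene list in the 4 strains on the TMM scale, 1 symbol per strain. YPS128 has the highest median for trehalose genes, 2.001, and the lowest for cytosolic ribosomal proteins, -1.96, with BY4743 at 0.49 for the latter, and library totals raise the median of all genes in YPS128 by 0.905.

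NCYC3290, the other strain that the study calls sensitive to NaCl, had the fewest genes called in the opposite direction to YPS128. The change differed at 884 genes (14.7%), with 455 more positive (7.56%) and 429 more negative (7.13%) in YPS128. This count rested on single libraries. It was 310 without replicate 1 at 30 min, 1010 without replicate 2 at 30 min and 579 without replicate 3 at 3 h. With a block for each culture it was 481, and without the replicate block 735. STL1 (2.95, adjusted p = 8.09e-05), GID10 (3.08, adjusted p = 0.000106) and GIP2 (3.24, adjusted p = 5.47e-05) rose further in YPS128. The hexose transporter gene HXT2 had a difference of -2.07, and HXT13, which rose in both strains, rose less in YPS128 (-2.10). PIR3 had a difference of 0.67 (adjusted p = 0.574), and PMA1 one of -0.86 (adjusted p = 0.152), and neither passed the threshold.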

How the data were processed

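RNA of 35 yeast samples was depleted of rRNA and sequenced as stranded single-end reads. The authors trimmed reads with Trimmomatic, mapped them to S288c with bwa-mem and deposited raw counts per gene from HT-Seq, with no normalization. Its strand and multiple-mapping settings are not given in the sources used here, so overlapping genes and near-identical copies are uncertain. The table has 6717 genes, of which 6025 matched the R64 annotation, and the IDs without a match held under 0.2% of the counts in these libraries. No column was left unused. Totals in YPS128 at 30 min and 3 h ran from 3629637 to 4805400, and a count of 3, the detection floor, equals 0.624 to 0.827 CPM, which covers counting error only.

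Genes were filtered by filterByExpr over the 12 strain-by-time groups, scaled by TMM (factors of 0.632 and 0.788 at 30 min and 1.29 to 1.51 at 3 h) and fitted in edgeR 4.0.16 (R 4.3.3, limma 3.58.1) by a robust quasi-likelihood model with group and replicate number, over all 35 libraries. The biological coefficient of variation was 15.5%. Replicate 3 at 3 h enters through the replicate effects of the other libraries. P-values were adjusted by Benjamini-Hochberg, with a threshold of 0.05. For a single gene, an exact permutation test of 3 against 2 libraries could not go below p = 0.1 (two-sided). For the change in a single culture, log2 CPM was taken after adding a prior count of 2. Pairing rests on the growth protocol, by which 1 culture was sampled at each time, and on parallel growth. It was checked by correlating the deviations of cultures 1 and 2 across genes, which gave -0.23 between unstressed and 30 min, 0.21 between unstressed and 3 h and -0.03 between 30 min and 3 h, and these values do not show the pairing.

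The comparison, the 33 gene lists and the motifs were chosen with earlier results of these data known. Of the list entries, 1098 matched an ID and 2 did not. Genes named by rule were the 10 largest rises and falls, up to 2 of each per list, and the 5 largest strain differences of each sign, with at least 16 CPM on average, the same sign in both paired cultures, no overlap between groups and at least 80% of 100-base windows unique, and ENA1. Other genes, such as GPD1, GPP2, HSP104, SLT2, HXK2, PUT1, IME1 and the pairs of related genes, were named for their role after their values were seen. Another pair that was looked at, whose members did not keep the same order of change in both cultures, is not reported here. Alternatives were other scalings, DESeq2 1.42.0, other filters and blocks, fewer libraries and each YPS128 library left out in turn.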

Additional observations from a re-analysis of the deposited data

Results flagged for a closer look

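The genes below were singled out because their change from 30 min to 3 h differed between YPS128 and the mean of BY4743, BC187 and NCYC3290 in the test of that difference, and because they had the 5 largest differences of each sign under the rule for named genes. All values are log2 differences, YPS128 minus the mean of the others. The positive differences were 4.70 for the glycerol importer gene STL1, 4.49 for GID10, 4.46 for HSP12, 4.41 for SRL3 and 4.28 for YHB1. The negative differences were -3.25 for AQY2, -3.08 for PHO84, -2.81 for SFG1, -2.76 for FCY2 and -2.67 for PTR2. Against NCYC3290 alone the differences were smaller, with 2.95 for STL1 and -1.36 for AQY2. For YHB1, FCY2 and PHO84 the difference from NCYC3290 did not pass the threshold of edgeR. The values were 1.63 (adjusted p = 0.0538 from edgeR), -1.11 (adjusted p = 0.0528) and -1.17 (adjusted p = 0.151).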

How the results depend on the processing

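With library totals in place of TMM, 3857 genes were higher and 461 lower at 3 h in YPS128, 3098 and 557 were more positive and more negative than in the mean of the other strains, and 862 and 216 than in NCYC3290. Of the 126 named genes, 110 kept their call, 9 kept their direction but lost it, and 7 turned, with log2 fold changes of 0.58 for SAT4, 0.39 for GLC7, 0.30 for PRE1, 0.23 for FBP1, 0.24 for VCX1, 0.17 for GPD2 and 0.063 for MIG2. Scaling by upper quartiles or by the size factors of DESeq2, its Wald test and the other filters left between 3194 and 3582 genes changed, and fits to the 8 or the 5 YPS128 libraries alone 3157 and 3149. A minimum absolute log2 fold change of 1 left 1983 genes (1131 higher, 852 lower), 1577 that differed from the other strains (851 and 726) and 503 that differed from NCYC3290 (281 and 222).

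Without the replicate block the counts were 3440, 2790 and 735. With a block for each culture, which uses the pairing directly, they were 3290, 2488 and 481 (293 and 188), and the cause of the last fall was not tested. With each YPS128 library left out in turn, the changed genes numbered 2918 to 3349, those that differed from the mean of the other strains 2010 to 2674, and those that differed from NCYC3290 310 to 1010 (191 to 434 more positive and 119 to 576 more negative). Of the named genes, 1 to 7 lost their call in these fits and none of the 126 turned. Where a library was left out at 30 min, the lone library was assumed to vary like the other groups. Depth limits the genes near silence at 30 min, where a few counts set the size of a fold change.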
